A study of Mus musculus with 36 samples.

Results

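The 9 genes *Ucp1*, *Cidea*, *Ppargc1a*, *Dio2*, *Prdm16*, *Elovl3*, *Cox8b*, *Cox7a1* and *Ebf2* are commonly used to describe heat-producing (thermogenic) adipocytes. They were followed in epididymal white adipose tissue (eWAT), the fat pad beside the epididymis of male mice. Each was found by its symbol and had 1 row in the table, so that 9 of 24750 genes are described here. RNA was sequenced from the eWAT of 36 male mice in 12 groups of 3. The groups were WT or CCL19-KI mice fed a normal diet (ND), a 40% fat diet (40% HFD) or a 60% fat diet (60% HFD), each with or without ligature. The WT mice were C57BL/6. In CCL19-KI mice, labelled Adipoq-CCL19-KI, *Ccl19* was inserted at the *Adipoq* locus, so the transgene is driven from a gene of adipocytes, and the homozygous line was bred apart from the WT mice. The ligature is a thread tied around teeth that induces periodontitis, and it was in place for 2 weeks. The mice had been on their diet for 8 weeks, and were 14 weeks old, when ligation took place.

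Brown and beige adipocytes burn fuel to make heat. Noradrenaline acts on their adrenergic receptors, lipid is released, and the uncoupling protein UCP1 lets protons flow back through the inner mitochondrial membrane without ATP being made. White adipocytes store lipid instead, and the epididymal depot of the mouse is known as one in which beige adipocytes are scarce. Among the 9 genes, *Ucp1* encodes the uncoupling protein, *Dio2* a deiodinase that activates thyroid hormone, *Cidea* a lipid droplet protein and *Elovl3* an elongase of very long fatty acids. *Cox8b* and *Cox7a1* encode isoforms of cytochrome c oxidase subunits that are also used in muscle. *Ppargc1a*, *Prdm16* and *Ebf2* encode regulators of transcription. *Ppargc1a* and *Elovl3* are also expressed in liver, and *Ebf2* in adipose progenitors.

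The reads per library ranged from 11962228 to 21581595, so that 3 reads corresponded to 0.142 to 0.250 normalized CPM (reads scaled to library size with edgeR by the authors). Transcripts used as markers of other tissues were present in unequal amounts. Whether they came from other tissue or from cells of the depot was not tested. The marker score used here is the mean log2(normalized CPM + 1) over a list of marker genes. The adipocyte score was 7.68 to 10.3 in all libraries, with 11 of 11 marker genes tested, of which 1 was higher and 3 lower on the 60% HFD than on the ND (median difference -0.20) and none differed at an adjusted p under 0.05 between the 40% HFD and the ND. Over 14 hepatocyte genes, the score ranged from 1.35 to 10.7 and the summed level from 0.0136 to 4.32% of the library. The hepatocyte score was 1.35 to 1.49 in the 3 WT mice fed an ND without ligature and 8.66 to 10.6 in the corresponding mice fed a 40% HFD. *Alb*, which encodes albumin, was at 5.55 to 26901 normalized CPM and at 0 in none of the 36 libraries. Of the hepatocyte genes, 12 of 14 were higher at an adjusted p under 0.05 in 60% HFD than in ND mice, and 12 of 14 in 40% HFD than in ND mice. Epididymal epithelium was scored on 7 of 8 listed genes. Its score was at most 4.07 in 34 libraries, 9.38 in ND WT replicate 2 and 7.64 in 60% HFD KI replicate 2, which therefore stand apart by score. By summed level 60% HFD KI replicate 3 was highest, at 10670 normalized CPM, with 6233 and 4898 in those 2 libraries. *Crisp1*, a secreted protein of that epithelium, was at 0 in 6 libraries and *Lcn5* in 22. Skeletal muscle scored 0.866 to 4.44 over 15 genes, of which 13 could be tested, with 2 lower on the 60% HFD and 8 on the 40% HFD than on the ND. Adipose progenitor genes scored 6.51 to 7.90, smooth muscle genes 2.72 to 9.67 and kidney tubule genes 1.13 to 4.36. Of these 3 lists only 2 of 6 kidney tubule genes differed between diets, both higher on the 60% HFD than on the ND. At the same threshold (limma), 18.6% of all genes tested differed between the 60% HFD and the ND. For the 40% HFD against the ND it was 9.21%. In bulk tissue, fewer cells of a type and less RNA per cell cannot be told apart. The labels do not say whether mice of a group shared a cage or litter, so p-values measure the spread between these mice.

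The level of the 9 genes was low in this depot. Means over the 36 libraries, in normalized CPM, were 0.274 for *Ucp1* and 0.817 for *Dio2*, the members below 1, and 1.20 for *Cidea*, 2.78 for *Cox7a1*, 3.17 for *Prdm16*, 3.81 for *Cox8b*, 6.67 for *Ppargc1a*, 17.2 for *Elovl3* and 25.8 for *Ebf2*. Per kilobase of annotated exon the order was different, with *Cox8b* highest at 10.6 and *Dio2* lowest at 0.140 normalized CPM per kilobase. *Elovl3* was at 8.72, *Cox7a1* at 5.20 and *Ebf2* at 3.72 on this scale, and *Ucp1* at 0.168. Genes had to reach 1 normalized CPM in at least 3 libraries to be tested, which 8 of the 9 did. *Ucp1* did so in 2 libraries only. For each of the 9 genes the 12 groups were ordered by their mean, and in none of the 11 steps of that order did the ranges of neighbouring groups separate. Neighbours in such an order are close by construction, so this says nothing about groups farther apart. Some of those do not overlap, as given below for *Ucp1* and *Cox7a1*.

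**Figure D1:**
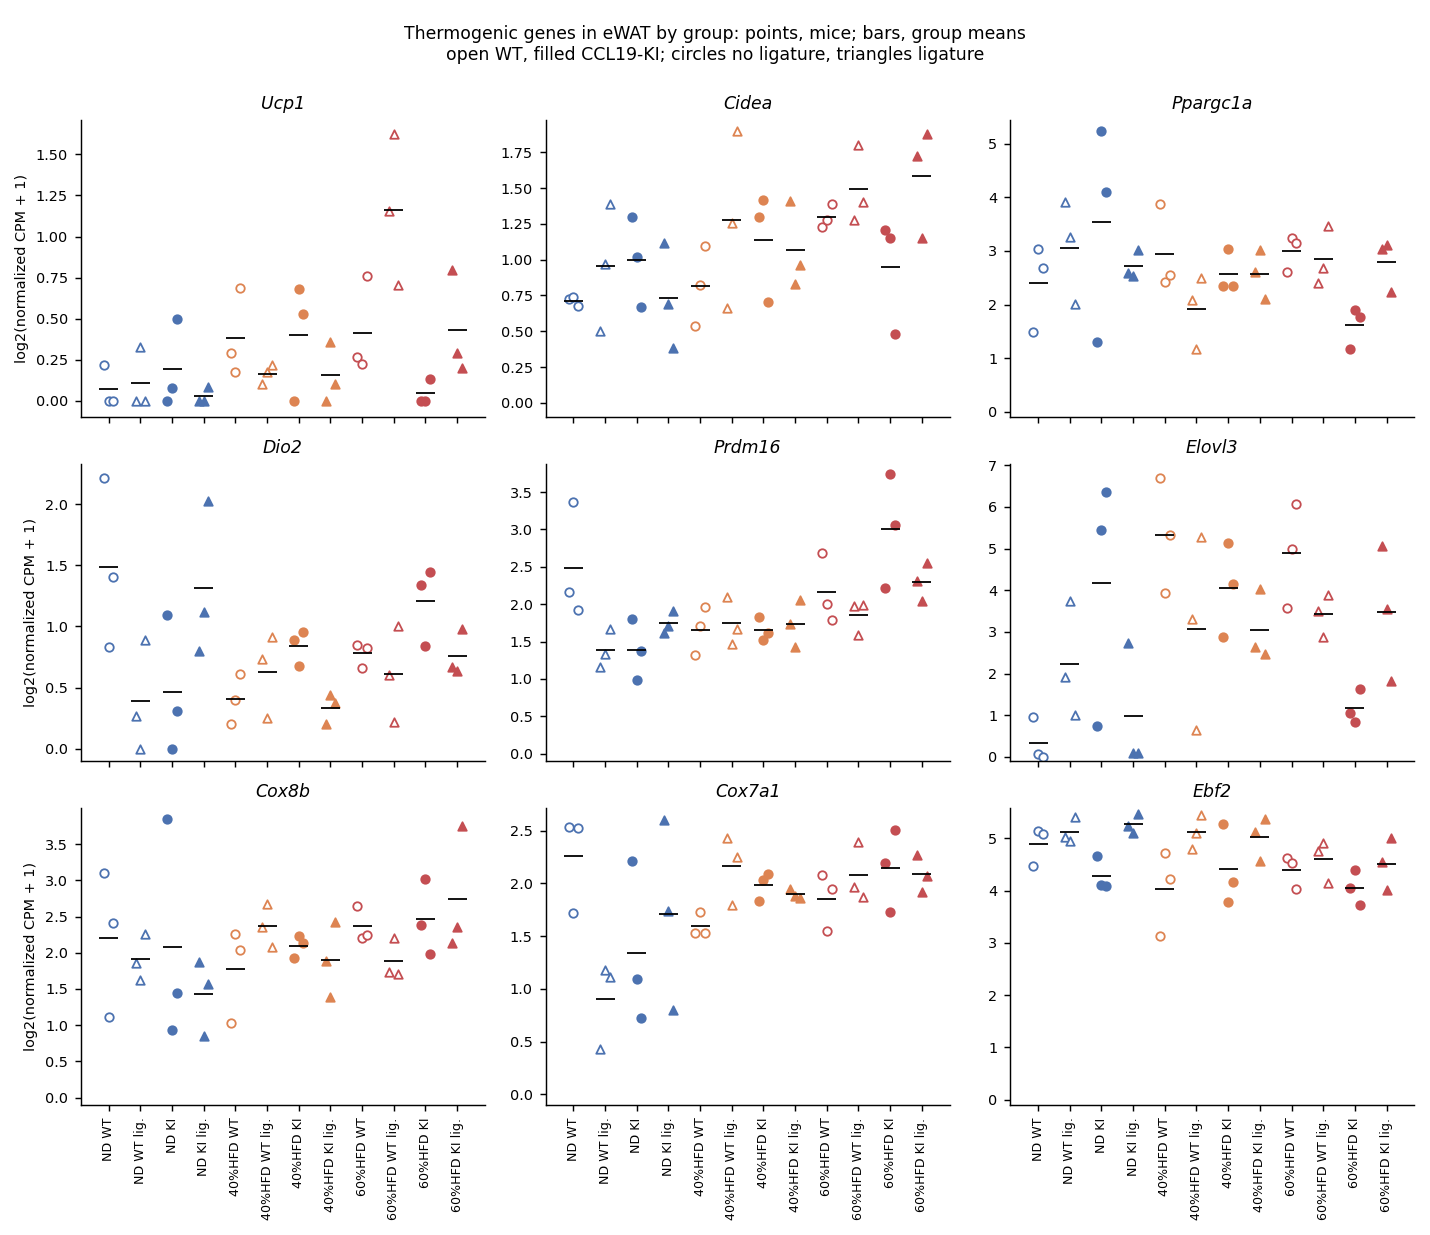
Level of each of the 9 genes, as log2(normalized CPM + 1), in the 12 groups; points are mice, bars are group means of 3 mice, open symbols are WT and filled symbols CCL19-KI, circles are mice without ligature and triangles ligatured mice. *Elovl3* spreads from 0 to 102 normalized CPM, *Ebf2* only from 7.81 to 43.1, and *Ucp1* exceeds 1 normalized CPM in 2 mice, both of them ligatured WT mice fed a 60% HFD.

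*Ucp1* (ENSMUSG00000031710, chromosome 8, 83290352 to 83298452, plus strand of GRCm38) was close to the limit of detection. It had 148 reads in all 36 libraries together, no read in 11 libraries and at most 3 reads in 24. In ND mice the level was 0 to 0.413, with a median of 0 normalized CPM over 12 mice. In 40% HFD mice it was 0 to 0.606 with a median of 0.145. In 60% HFD mice it was 0 to 2.09 with a median of 0.212. The ligatured WT mice fed a 60% HFD were highest, at 1.23, 2.09 and 0.631 normalized CPM (19, 26 and 10 reads), and did not overlap with ligatured WT mice fed an ND, at 0, 0.253 and 0 (0, 5 and 0 reads). Ligatured CCL19-KI mice fed a 60% HFD were at 0.736, 0.222 and 0.149.

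Because of the filter, *Ucp1* was not part of the test. When all 24750 genes were fitted without a filter, it was higher in 60% HFD than in ND mice by 0.41 ± 0.10 (SE) on the log2(value + 1) scale (limma, adjusted p = 0.00967). In that fit 12.7% of all genes passed the same threshold. When each mouse was left out in turn, which keeps all 12 groups, the difference was 0.35 to 0.47, with all adjusted p-values below 0.05. It lost its call in edgeR on reads (adjusted p = 0.0827) and with the hepatocyte score in the fit (0.33, adjusted p = 0.0938). In ligatured WT mice alone the difference between 60% HFD and ND was 1.05 ± 0.20 (adjusted p = 0.00835, against 1.48% of all genes called). In edgeR on reads its adjusted p was 0.157. These mice were singled out because they were highest, so these p-values are no independent test. The same difference was 0.34 in unligatured WT, 0.40 in ligatured CCL19-KI and -0.15 in unligatured CCL19-KI mice, with none of these called. The averaged rise was thus largest in 1 group and absent in unligatured CCL19-KI mice. The fitted values depend on the pseudocount, since most ND libraries held no read. Ratios of *Ucp1* are therefore not given.

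*Cidea* (ENSMUSG00000024526, chromosome 18, 67343604 to 67367785, plus strand) was detected in every library, at 0.306 to 2.73 normalized CPM. Its lowest group was ND WT without ligature, at 0.652, 0.668 and 0.600. The highest was 60% HFD KI with ligature, at 2.30, 1.22 and 2.68. Over 12 mice each, the lowest, median and highest were 0.306, 0.660 and 1.63 in ND, 0.451, 1.04 and 2.73 in 40% HFD and 0.393, 1.42 and 2.68 in 60% HFD mice. The order of the medians was that of dietary fat, and the ranges overlap. *Dio2* (ENSMUSG00000007682, chromosome 12, 90724552 to 90738438, minus strand) was at 0 in 2 libraries and held at most 3 reads in 7. It was highest in ND WT mice without ligature, at 3.64, 0.779 and 1.65 normalized CPM, and lowest in ligatured 40% HFD KI mice, at 0.150, 0.354 and 0.292. Its median was 0.815 in ND, 0.442 in 40% HFD and 0.781 in 60% HFD mice.

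*Elovl3* (ENSMUSG00000038754, chromosome 19, 46131897 to 46135694, plus strand) varied more than any other of the 9 genes. In ND WT mice without ligature it was at 0.924, 0.0557 and 0 normalized CPM (17, 1 and 0 reads). In the corresponding 40% HFD mice it was at 102, 14.4 and 39.0, and in the 60% HFD mice at 11.0, 30.9 and 66.4. The 6 HFD libraries all exceeded the 3 ND libraries. Yet in CCL19-KI mice without ligature the pattern was another, with 0.661, 42.3 and 80.6 on an ND, 6.38, 34.0 and 16.8 on a 40% HFD and only 1.08, 0.793 and 2.11 on a 60% HFD. *Elovl3* followed the hepatocyte score: across the 36 libraries Pearson's r was 0.885, and it was 0.827 after group means were removed from both. The 3 WT mice with almost no *Elovl3* had hepatocyte scores of at most 1.49, and the 3 low 60% HFD KI mice had scores of 1.78 to 6.05. This correlation is a description of 36 libraries, in which both values come from the same library. *Pitx3* overlaps *Elovl3* on the opposite strand, and whether strand was used in counting is not given in the sources used here. *Cidea*, *Ppargc1a*, *Dio2*, *Prdm16* and *Ebf2* also overlap annotated genes on the opposite strand.

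**Figure D2:**
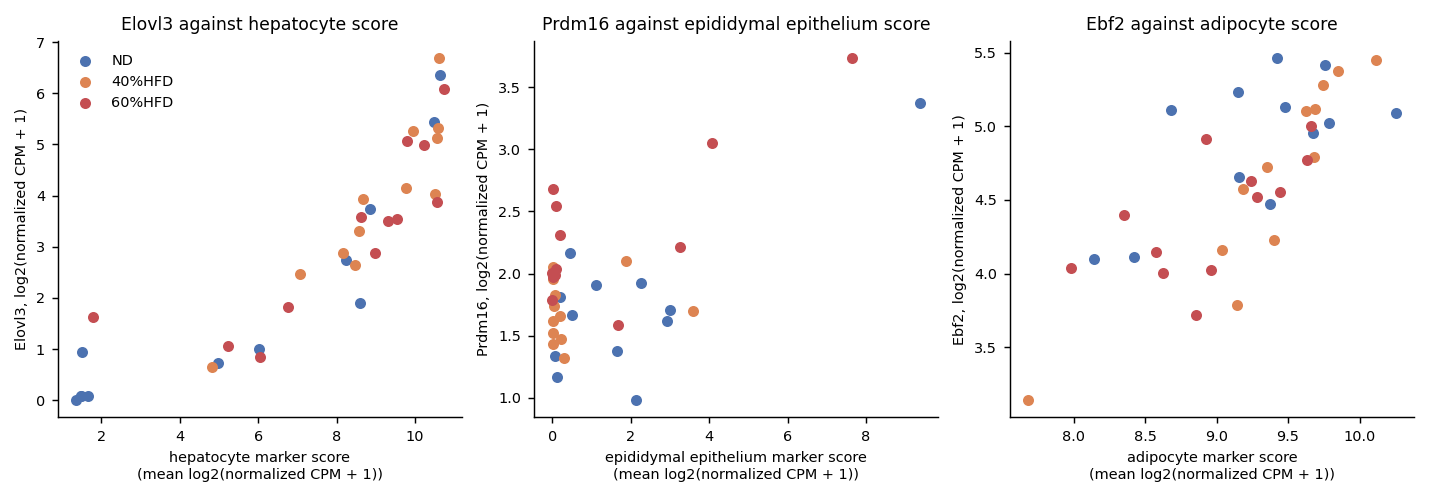
*Elovl3*, *Prdm16* and *Ebf2* against a marker score in the 36 libraries, each point a mouse coloured by diet; the vertical axis is log2(normalized CPM + 1) of the gene and the horizontal axis the mean log2(normalized CPM + 1) of the marker list. *Elovl3* climbs with the hepatocyte score (r = 0.885), the highest *Prdm16* values belong to the 2 libraries with epididymal epithelium scores of 9.38 and 7.64, and *Ebf2* climbs with the adipocyte score (r = 0.755).

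The cytochrome c oxidase isoforms were present in every library. *Cox8b* (ENSMUSG00000025488, chromosome 7, 140898945 to 140900446, minus strand) was at 0.798 to 13.4 normalized CPM, and *Cox7a1* (ENSMUSG00000074218, chromosome 7, 30184144 to 30186078, plus strand) at 0.345 to 5.08. The 2 highest *Cox8b* values, 13.4 in ND KI replicate 1 and 12.5 in ligatured 60% HFD KI replicate 3, stood next to values of 0.918 to 4.11 in the same groups. *Cox7a1* was 4.78, 2.28 and 4.75 in ND WT mice without ligature and 0.345, 1.27 and 1.16 in those with ligature, with no overlap. In HFD mice it was less variable, at 1.88 to 4.66 in all 24 libraries, compared with 0.345 to 5.08 in the 12 ND libraries. Both genes are muscle isoforms too, and their correlation with the skeletal muscle score was 0.01 for *Cox8b* and 0.19 for *Cox7a1* over the 36 libraries. Within groups it was 0.28 and 0.30.

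Of the regulators, *Ppargc1a* (ENSMUSG00000029167, chromosome 5, 51454250 to 51567726, minus strand), a coactivator of mitochondrial biogenesis, ranged from 1.25 to 36.7 normalized CPM. The extremes were both among CCL19-KI mice without ligature: 1.46, 36.7 and 16.2 on an ND, and 1.25, 2.74 and 2.40 on a 60% HFD. Its correlation with the hepatocyte score was 0.50 over the 36 libraries and 0.60 within groups. *Prdm16* (ENSMUSG00000039410, chromosome 4, 154316125 to 154636873, minus strand), a determinant of brown and beige fate, was lowest in ligatured ND WT mice, at 1.24, 1.52 and 2.17, and highest in 60% HFD KI mice without ligature, at 3.64, 12.3 and 7.31. The next highest single value was 9.35, in ND WT replicate 2. The values of 12.3 and 9.35 come from the 2 libraries with the highest epididymal epithelium scores. The value of 7.31 comes from the library with the highest summed level of those marker genes. Between *Prdm16* and the epididymal epithelium score, r was 0.62 over 36 libraries and 0.54 within groups.

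*Ebf2* (ENSMUSG00000022053, chromosome 14, 67233292 to 67430918, plus strand), which marks cells committed to the brown lineage as well as adipose progenitors, had the highest mean level of the 9 genes in normalized CPM. Over 12 mice each, the lowest, median and highest were 16.1, 32.3 and 43.1 normalized CPM in ND, 7.81, 26.1 and 42.6 in 40% HFD and 12.2, 21.0 and 31.0 in 60% HFD mice. Over 18 mice each, they were 7.81, 18.9 and 37.8 without ligature and 15.0, 31.2 and 43.1 with ligature. All ranges overlap. Its level followed the adipocyte score, with r = 0.76 over 36 libraries and 0.74 within groups, and the adipose progenitor score, with r = 0.44 and 0.56.

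The effect of diet was asked first, averaged over genotype and ligature, from limma on log2(normalized CPM + 1) with all 36 mice in 1 fit. Adjustment was by Benjamini-Hochberg over all 17852 genes tested, and a gene with an adjusted p under 0.05 is said to be called. Between 60% HFD and ND, *Cidea* and *Prdm16* rose and *Ebf2* fell, which is 3 of the 8 tested members against 18.6% of all genes. *Cidea* was higher by 0.48 ± 0.15 (SE; adjusted p = 0.0233) and *Prdm16* by 0.58 ± 0.17 (adjusted p = 0.0198). *Ebf2* was lower, with a difference of -0.50 ± 0.18, at an adjusted p of 0.04995 that lies at the threshold. Both rises stayed called when each of the 36 mice was left out in turn, with 0.42 to 0.54 for *Cidea* and 0.48 to 0.69 for *Prdm16*. The fall of *Ebf2* lost its call in 27 of the 36 leave-outs, the adjusted p reaching 0.0930, and in edgeR on reads (adjusted p = 0.0615). The hepatocyte score moved with diet. With it in the fit, *Cidea* differed by 0.45 (adjusted p = 0.0973), *Prdm16* remained called, and *Ebf2* differed by -0.28 (adjusted p = 0.406). With the adipocyte score in the fit *Ebf2* differed by -0.28 (adjusted p = 0.125). Leaving out the 2 libraries of highest epididymal score gave 0.46 (adjusted p = 0.0538) for *Cidea* and 0.59 (adjusted p = 0.00798) for *Prdm16*. This kept 60% HFD KI replicate 3, which had the highest summed epididymal level.

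The other 5 tested members did not pass the test between 60% HFD and ND. *Cox7a1* differed by 0.49 ± 0.17 (adjusted p = 0.0522), *Elovl3* by 1.31 ± 0.59 (adjusted p = 0.111) and *Cox8b* by 0.46 ± 0.27 (adjusted p = 0.235). *Ppargc1a* was at -0.36 ± 0.32 (adjusted p = 0.438) and *Dio2* at -0.07 ± 0.16 (adjusted p = 0.777). With the hepatocyte score in the fit, the *Ppargc1a* difference between 60% HFD and ND was -1.01 ± 0.31 (adjusted p = 0.0333), and *Elovl3* turned to -0.33 ± 0.40. The median log2 difference of the 8 members was 0.47, next to 0.014 for all genes.

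Between 40% HFD and ND, only *Elovl3* was called among the 8 tested members, against 9.21% of all genes. It was higher by 1.95 ± 0.59 (adjusted p = 0.0373). The call was lost in 14 of 36 leave-outs, in which the difference was 1.52 to 2.25, and with the hepatocyte score in the fit the difference was -0.22 (adjusted p = 0.857). *Ppargc1a* was at -0.42 ± 0.32 (adjusted p = 0.411) without the score and at -1.27 ± 0.34 (adjusted p = 0.0385) with it. *Cox7a1* differed by 0.35 ± 0.17 (adjusted p = 0.194), *Dio2* by -0.36 ± 0.16 (adjusted p = 0.153) and *Cidea* by 0.23 ± 0.15 (adjusted p = 0.327). *Prdm16*, called for the 60% HFD, was at -0.05 ± 0.17 for the 40% HFD. *Ebf2* was at -0.25 ± 0.18 and *Cox8b* at 0.13 ± 0.27 (adjusted p = 0.792). *Ucp1*, in the fit without a filter, was at 0.18 ± 0.10 (adjusted p = 0.315). Both diets share the ND mice as their control. In the direct comparison of 60% with 40% HFD none of the 8 members was called, where 0.745% of all genes were and 1 member had an unadjusted p under 0.05. That member was *Prdm16*, at 0.63 ± 0.17 (adjusted p = 0.0711), which was called in 2 of 36 leave-outs and by DESeq2 on reads (adjusted p = 0.0184). The other 7 differences lay between -0.63 ± 0.59 for *Elovl3* and 0.33 ± 0.27 for *Cox8b*, with *Cidea* at 0.26, *Dio2* at 0.29, *Cox7a1* at 0.13, *Ppargc1a* at 0.06 and *Ebf2* at -0.25. Without a filter *Ucp1* was at 0.24 ± 0.10 (adjusted p = 0.351).

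**Figure D3:**
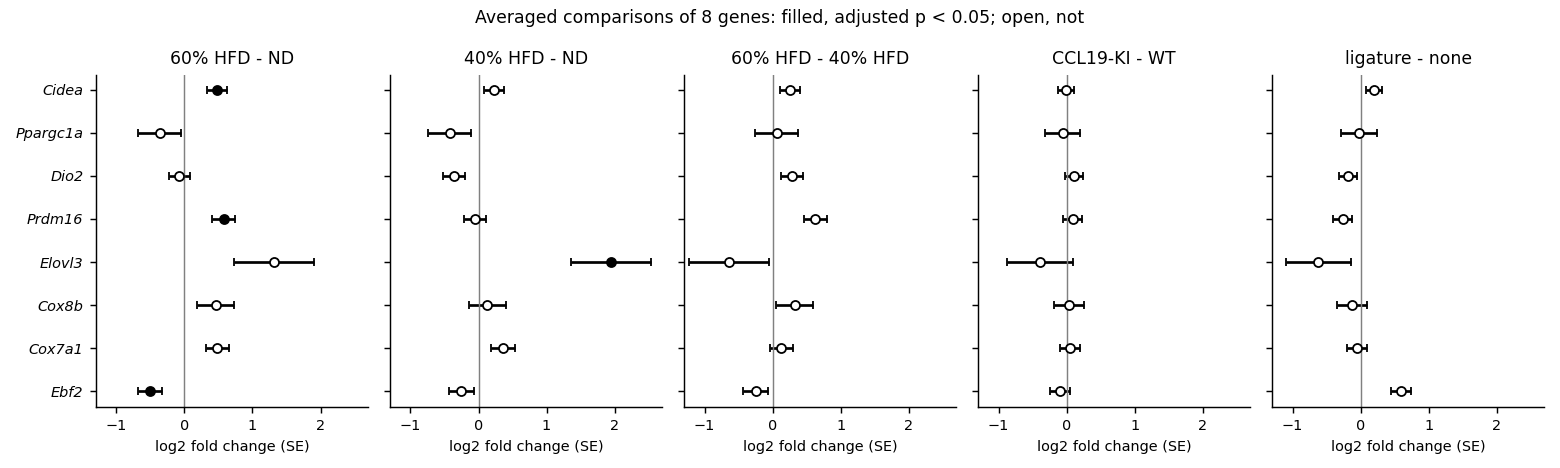
Log2 difference of the 8 tested genes in the averaged comparisons of diet, genotype and ligature, with bars of 1 SE; filled points have an adjusted p under 0.05. Filled points are *Cidea*, *Prdm16* and *Ebf2* for the 60% HFD against ND and *Elovl3* for the 40% HFD against ND, and none lies in the other 3 panels.

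**Figure D4:**
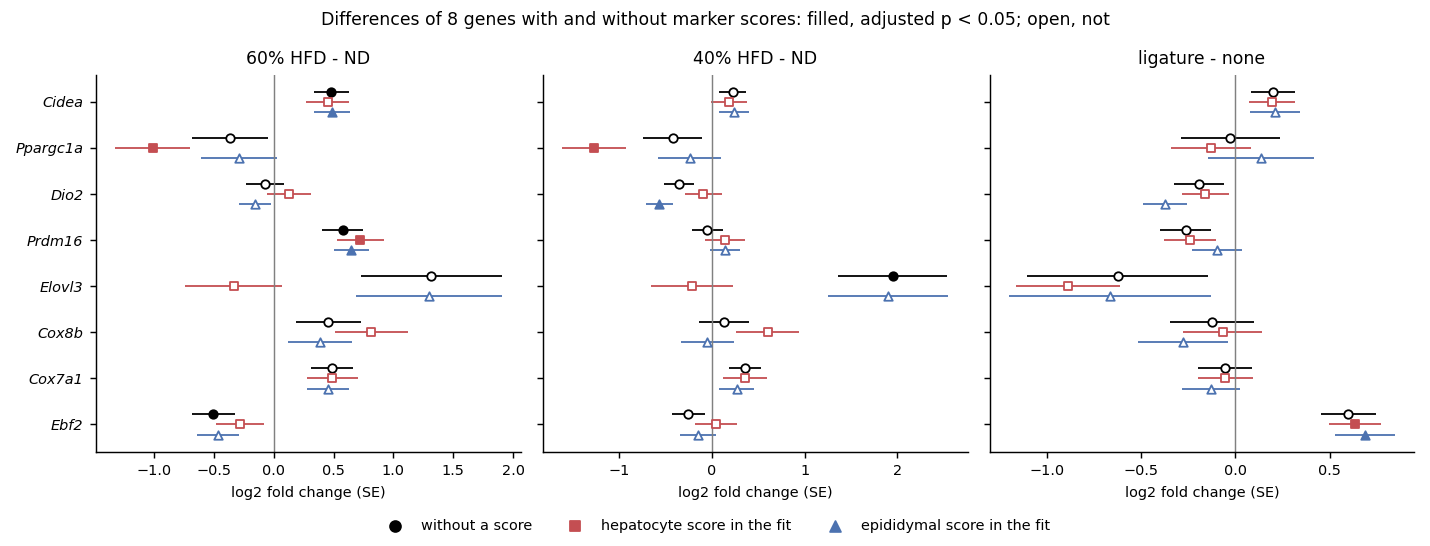
Log2 difference with bars of 1 SE of the 8 genes in 3 averaged comparisons, without a marker score, with the hepatocyte score and with the epididymal epithelium score in the fit; filled points have an adjusted p under 0.05. *Elovl3* crosses from 1.95 to -0.22 for the 40% HFD, *Ppargc1a* moves from -0.42 to -1.27, and *Ebf2* under ligature stays between 0.60 and 0.69.

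The effect of adipocyte CCL19 was asked by comparing CCL19-KI with WT mice, averaged over diet and ligature. None of the 8 members was called in limma, 0 had an unadjusted p under 0.05, and edgeR and DESeq2 on reads called 0 as well; 0.459% of all genes were called. The estimates were small for 7 of the 8 genes, from -0.10 ± 0.15 for *Ebf2* to 0.11 ± 0.13 for *Dio2*. *Elovl3* was at -0.39 ± 0.48. *Ucp1*, in the fit without a filter, was at -0.18 ± 0.08 (adjusted p = 0.305).

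For the ligature, averaged over diet and genotype, no member was called in limma or in edgeR on reads and 1 had an unadjusted p under 0.05, while 0.325% of all genes were called. *Ebf2* had the lowest p-value, with a difference of 0.60 ± 0.15 (limma, adjusted p = 0.0695). It was higher in ligatured than in unligatured mice in all 6 pairs of groups, by 0.22 in 60% HFD WT to 1.08 in 40% HFD WT mice, and none of these 6 differences passed the test alone. In 6 of 36 leave-outs *Ebf2* was called, with differences of 0.52 to 0.67 over all 36. By DESeq2 on reads it was called too (adjusted p = 0.0106), and by limma with the hepatocyte score in the fit as well (adjusted p = 0.0225). The adipocyte markers were also higher with ligature, by a median of 0.45 with none of 11 called, and with the adipocyte score in the fit *Ebf2* differed by 0.30 ± 0.12 (adjusted p = 0.350). The part of adipocyte content in this difference was not tested beyond that fit. For the other 7 members the difference lay between -0.62 ± 0.48 for *Elovl3* and 0.20 ± 0.12 for *Cidea*, and *Ucp1* in the fit without a filter was at 0.09 ± 0.08 (adjusted p = 0.649). None of the 8 members was called in the 5 tests of whether the effect of genotype or of ligature differed between diets, or that of genotype between ligatured and unligatured mice. Over all genes, 0.476% were called for the genotype effect on the 60% HFD against ND and 0 to 0.0056% in the other 4 tests. Unadjusted, 3 of these 40 values had a p under 0.05 in limma, and edgeR and DESeq2 on reads called 1 and 2. *Prdm16* came nearest in limma, with a genotype effect that was higher on the 60% HFD than on the ND by 1.02 ± 0.34 (adjusted p = 0.0935).

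In the 24 comparisons of 2 groups that differ in 1 factor only, members were called 12 times, and 9 of these calls involve ND WT mice without ligature. In the comparisons with these mice 3.41 to 16.6% of all genes were called, and 9.53 to 16.8% in those of the other calls. The 12 calls rest on the spread shared by the 12 groups, since the smallest p of an exact permutation test (two-sided) between 2 groups of 3 mice is 0.1. In the other 17 comparisons no member was called, while 0 to 12.8% of all genes were. In ND mice without ligature, CCL19-KI was lower than WT in *Dio2* (-1.02 ± 0.32, adjusted p = 0.0328) and *Prdm16* (-1.10 ± 0.34, adjusted p = 0.0278) and higher in *Elovl3* (3.83 ± 1.18, adjusted p = 0.0287), where 16.6% of all genes were called. Without ND WT replicate 2, which is rich in epididymal marker transcripts, the *Prdm16* difference was -0.66, and without ND WT replicate 1 that of *Dio2* was -0.65. In 60% HFD mice without ligature, CCL19-KI was lower than WT in *Elovl3* (-3.71 ± 1.18, adjusted p = 0.0324, 16.8% of all genes called). Without a marker score in the fit, the sign of the *Elovl3* difference between genotypes was thus opposite on the ND and the 60% HFD. The difference between the effects, averaged over ligature, was -3.12 ± 1.18 and not called (limma, adjusted p = 0.127). The hepatocyte score differed in the same directions. It was 1.35 to 1.49 in these ND WT and 4.98 to 10.6 in these ND CCL19-KI mice. On the 60% HFD it was 8.62 to 10.7 in WT and 1.78 to 6.05 in CCL19-KI mice. With that score in the fit, the *Elovl3* difference on the ND turned negative.

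Ligature in ND WT mice went with lower *Dio2* (-1.10 ± 0.32, adjusted p = 0.0399), *Prdm16* (-1.10 ± 0.34, adjusted p = 0.0464) and *Cox7a1* (-1.35 ± 0.35, adjusted p = 0.0229), where 6.73% of all genes were called. The *Dio2* values were 3.64, 0.779 and 1.65 normalized CPM without and 0.207, 0 and 0.851 with ligature, which overlap. Without ND WT replicate 2 the *Prdm16* difference was -0.66 and no longer called. The values of *Cox7a1*, given above, do not overlap, and without ligatured ND WT replicate 1 the difference was -1.11. The 40% HFD in WT mice without ligature went with lower *Dio2* (-1.08 ± 0.32, adjusted p = 0.0451) and higher *Elovl3* (4.98 ± 1.18, adjusted p = 0.0122), with 6.03% of all genes called. Without ND WT replicate 1 the *Dio2* difference was -0.71. The 60% HFD in the same mice went with higher *Elovl3* (4.54 ± 1.18, adjusted p = 0.0285, 3.41% of all genes called).

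In CCL19-KI mice without ligature, *Prdm16* was higher on the 60% HFD than on the ND by 1.61 ± 0.34 (adjusted p = 0.00855, 10.2% of all genes called) and than on the 40% HFD by 1.35 ± 0.34 (adjusted p = 0.0193, 9.53% of all genes called). The 60% HFD values of 3.64, 12.3 and 7.31 normalized CPM lie above all of the ND values, 2.50, 0.972 and 1.59, and of the 40% HFD values, 2.55, 1.87 and 2.07. All 3 of these 60% HFD libraries had epididymal epithelium scores of 3.26 to 7.64. Without the 2 libraries of highest epididymal score the difference from ND was 1.25 (limma, adjusted p = 0.00616). That fit kept 60% HFD KI replicate 3, with the highest summed epididymal level, so it did not remove all libraries rich in these marker transcripts. With both hepatocyte and epididymal scores in the fit the difference from ND was 0.79 (limma, adjusted p = 0.226). Each of the 12 calls was tried without each of its 6 mice, and *Elovl3* in 40% HFD against ND WT mice kept its call in 5 of 6. *Prdm16* in 60% HFD against ND CCL19-KI mice kept it in 4 of 6, and the other 10 in 1 to 3 of 6. A group of 2 mice gives a weaker test, so a lost call need not mean that 1 mouse carried the difference. *Elovl3* in 60% HFD against ND WT mice stayed at 3.95 to 5.19, yet kept its call in 2 of 6. With the hepatocyte score in the fit 1 of the single-factor calls was left. The part of RNA from liver or epididymis in them was otherwise not tested.

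The wider program of thermogenic fat and relatives of the 9 genes were followed with 74 genes in 7 lists, of which 68 could be tested. Of the 68, 13 are such relatives, and 2 of these were called on each HFD against ND. The lists were chosen with earlier results of these data known, so the shares below are descriptions. Between 60% HFD and ND, 15 rose and 4 fell, or 27.9%, compared with 18.6% of all genes. The median log2 difference of the 68 genes was 0.15, next to 0.014 for all genes. Between 40% HFD and ND, 11 rose and 2 fell, or 19.1%, compared with 9.21% of all genes. With the hepatocyte score in the fit, 11 of the 19 remained called for the 60% HFD and 1 of the 13 for the 40% HFD. Over all genes, 1506 of 3315 and 276 of 1645 remained. By limma no gene of the 7 lists was called for genotype or for ligature, and 13 and 16 had an unadjusted p under 0.05; edgeR on reads called 0 and 1 of them and DESeq2 1 and 5.

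Of 16 genes of fuel supply and mitochondria, 6 rose on the 60% HFD and none fell, where 18.6% of all genes were called. *Slc27a2*, a fatty acid transport protein abundant in liver, differed by 2.57 ± 0.74 (adjusted p = 0.0184), but by 0.38 with the hepatocyte score in the fit (adjusted p = 0.630). *Otop1*, a proton channel of brown fat, rose by 1.90 (adjusted p = 7.8e-04), *Cpt1b*, the muscle and brown fat form of the mitochondrial fatty acid gate, by 1.21 (adjusted p = 0.00167), and *Pdk4*, a kinase that restrains glucose oxidation, by 1.19 (adjusted p = 0.00264). These 3 stayed called with the hepatocyte score. *Otop1* also rose on the 60% relative to the 40% HFD, by 1.77 (adjusted p = 0.0139). For the 40% HFD, 3 of the 16 rose, *Slc27a2* by 3.08, *Slc25a20* by 0.49 and *Hadhb* by 0.43, where 9.21% of all genes were called. None of these 3 remained called with the hepatocyte score.

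Among genes of creatine, calcium and other cycles that make heat without UCP1, 3 of 8 rose on the 60% HFD and none fell. Over all genes, 18.6% were called. *Pm20d1*, a secreted enzyme that makes N-acyl amino acids, differed by 1.34 (adjusted p = 0.00451), *Gamt*, which makes creatine, by 1.22 (adjusted p = 0.00112), and *Ryr2*, a calcium release channel, by 0.91 (adjusted p = 0.0218). *Gamt* and *Ryr2* stayed called with the hepatocyte score, and *Pm20d1* did not (0.61, adjusted p = 0.135). *Ryr2* was also higher on the 60% than on the 40% HFD, by 1.42 (adjusted p = 0.0139). On the 40% HFD, *Pm20d1* rose by 1.29 and *Gamt* by 0.98, which is 2 of the 8 genes against 9.21% of all genes.

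Of 14 regulators of brown and beige fat, 1 was higher and 2 were lower on the 60% HFD, a share near the 18.6% of all genes called. *Irf4*, a transcription factor of the fasting and cold response of adipocytes, fell by 1.60 on the log2 scale (adjusted p = 7.8e-04), and with the hepatocyte score in the fit by 1.73. *Esrrg*, a nuclear receptor of oxidative tissue, rose by 0.82 (adjusted p = 0.0480) and *Zfp516*, an activator of *Ucp1*, fell by 0.27 (adjusted p = 0.0477). With the hepatocyte score in the fit neither was called, at 0.54 (adjusted p = 0.320) for *Esrrg* and -0.15 (adjusted p = 0.403) for *Zfp516*. On the 40% HFD *Irf4* fell by 1.10 (adjusted p = 0.0183) and *Ppara* rose by 1.77 (adjusted p = 0.0353), while with the hepatocyte score *Ppara* was at -0.21. In adrenergic and natriuretic signalling, *Npr3*, the clearance receptor of natriuretic peptides, rose by 1.31 on the 60% HFD (adjusted p = 0.00513). On the 40% HFD *Npr3* rose by 1.08 (adjusted p = 0.0277), and *Gnas*, the stimulatory G protein subunit, rose by 0.22 (adjusted p = 0.0394). *Npr3* was the 1 gene of the 13 that stayed called with the hepatocyte score for the 40% HFD, at 1.84 (adjusted p = 0.00873).

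Relatives of the members, such as other deiodinases, CIDE proteins and uncoupling proteins, were followed as well. Of 13 such genes, *Dio1*, the liver and kidney deiodinase, and *Cideb*, the liver member of the CIDE family, rose on both diets and no other was called. The rises were 2.30 and 1.79 on the 60% HFD and 2.73 and 2.21 on the 40% HFD, and r with the hepatocyte score was 0.916 and 0.944 over the 36 libraries. Neither was called with that score in the fit. Of 6 secreted factors, *Gdf15*, a stress hormone, rose by 1.28 on the 60% HFD (adjusted p = 6.7e-04) and *Nrg4*, a growth factor of brown fat, fell by 0.77 (adjusted p = 0.00694), and *Gdf15* rose by 0.96 on the 40% HFD (adjusted p = 0.0108). Of 3 beige surface markers that could be tested, *P2rx5*, an ATP-gated channel, rose by 0.52 on the 60% HFD (adjusted p = 0.0345) and none was called on the 40% HFD. Over all genes, 18.6% were called on the 60% HFD and 9.21% on the 40% HFD. Whether the share in any of these small lists differs from that was not tested.

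The 9 genes did not vary as a unit. Over the 36 libraries *Ppargc1a* was negatively related to *Cox8b* (r = -0.65) and *Cox7a1* (r = -0.56) and positively to *Elovl3* (r = 0.58), and *Cox8b* and *Cox7a1* were related at r = 0.42. These are descriptions over libraries that share depth and tissue content. Among the 17852 genes tested, those most like *Elovl3* in their level over the 36 libraries were AC127342.1 (r = 0.954), *Afmid* (0.953) and *Urah* (0.953). *Ebf2* was followed most closely by *Scn7a* (r = 0.881), *Pde1a* (0.876) and *Gsn* (0.875), and *Prdm16* by *Nans* (r = 0.885), *Tbc1d9* (0.870) and *Arhgap31* (0.854). For *Ppargc1a* they were *Fbxo31*, *Rassf6* and *Gpt2*, with r of 0.832 to 0.835, for *Cox8b* *Rtn4*, *Grk5* and *Ppic*, with 0.791 to 0.808, and for *Cox7a1* Gm20634, *Capns1* and *Bcat1*, with 0.792 to 0.803. Likeness was weakest for the low genes, with *Celf5*, *Pdxp* and Gm14150 at 0.712 to 0.730 for *Dio2* and *Sash1*, *Cd83* and *Tmem160* at 0.625 to 0.686 for *Cidea*.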

How the data were processed

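Total RNA of epididymal fat was sequenced from 36 mice after rRNA depletion with strand-specific MGIEasy libraries, read in pairs on a DNBSEQ-G400. The authors trimmed reads with Trimmomatic (0.38 per the labels), aligned and quantified them with RSEM (1.3.0 per the labels) and Bowtie2, and normalized with edgeR. The study's methods name the mm10 genome and the labels GRCm39, and the build behind the table was not settled. Positions here are those of GRCm38 (GENCODE M21), by Ensembl identifier, for which 124 of 24750 rows had no symbol. Whether strand was used in counting is not given in the sources used here.

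The deposited values are a signal, edgeR-normalized CPM, and no counts. Every value was a whole multiple of 1 read (tolerance 0.01 read), worth 0.0472 to 0.0834 normalized CPM, so reads could be recovered for edgeR and DESeq2 as alternatives. Libraries held 11962228 to 21581595 reads. Floors of 3 reads cover counting error only.

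Tests were run in limma 3.58.1 (R 4.3.3) on log2(normalized CPM + 1), with an intensity trend, 12 group means and genes at 1 or more in at least 3 libraries, adjusted by Benjamini-Hochberg over the 17852 genes tested. There were 5 averaged contrasts, 24 single-factor comparisons and 5 differences of effects. A fold change on this scale understates that of low genes. edgeR 4.0.16 and DESeq2 1.42.0 were run on reads. Marker scores entered some fits as covariates. The code was tested on simulated data. The members and all lists were chosen with earlier results of these data known. All 9 members are described in the averaged comparisons by value or range, for *Ucp1* from a fit without the filter, and of the wider lists at most the 4 called genes per list and comparison with the largest difference are named. The values of 1 gene of the wider lists are not reported here. The neighbours are the 3 genes with the highest Pearson correlation to a member. Groups follow the labels, 18 mice with and 18 without ligature, although the design text speaks of ligature in all groups. Alternatives were other pseudocounts, filters, normalizations, tools, a replicate block, quality weights, marker scores and leaving out each mouse.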

Additional observations from a re-analysis of the deposited data

How the results depend on the processing

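Of 860 member values in alternatives other than leaving out a mouse, 704 kept direction and call status, 55 changed sign, 76 lost a call and 25 gained one. A value that stayed uncalled counts as kept. The 860 values do not take in every single-factor comparison and difference of effects, so calls gained there, given below, are not all among the 25. In the main fit members were called 3 and 1 times for 60% and 40% HFD against ND and 12 times in single-factor comparisons. Among called values, the share that lost its call is therefore larger than 76 of 860. At these depths *Ucp1* had 0 to 26 reads per library, and differences of a few reads were not detectable. The cause was not tested for any value below.

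The settings with the epididymal score, with both scores and without the 2 libraries of highest epididymal score, and those for *Ucp1*, were chosen after seeing the data. By the criteria of the study (an unadjusted p up to 0.05 with a ratio from 1.5 upward or up to 0.67), 1764, 406 and 228 genes were called in 60% HFD against ND, 60% against 40% HFD and ligature against none and the members called were 1, 1 and 1 in 60% HFD against ND, 60% against 40% HFD and ligature against none. At a pseudocount of 0.1, the sign turned for *Dio2* (0.20) for 60% HFD against ND and *Ppargc1a* (0.0058) for ligature against none. At a pseudocount of 5, the members called were 0 in 40% HFD against ND. Above a mean of 5, 81 and 49 genes were called in 60% against 40% HFD and CCL19-KI against WT, the members called were 1 in 60% HFD against ND and 4 calls were left among the single-factor comparisons. After quantile normalization, 41 and 98 genes were called in CCL19-KI against WT and ligature against none, with a turned sign for *Prdm16* (-0.014), *Cox8b* (-0.067) and *Cox7a1* (-0.050) for CCL19-KI against WT. Weighting libraries by quality, where the weights stopped before their tolerance was reached, 7846, 4797, 355, 3795 and 2258 genes were called in 60% HFD against ND, 40% HFD against ND, 60% against 40% HFD, CCL19-KI against WT and ligature against none, the members called were 6, 3, 1 and 1 in 60% HFD against ND, 40% HFD against ND, 60% against 40% HFD and ligature against none, 55 calls were made among the single-factor comparisons and the calls among the differences of effects were 6, with a turned sign for *Prdm16* (0.13) for 40% HFD against ND, *Cox7a1* (-0.029) for 60% against 40% HFD, *Cidea* (0.027), *Ppargc1a* (0.0019), *Cox8b* (-0.16) and *Cox7a1* (-0.075) for CCL19-KI against WT and *Cox7a1* (0.10) for ligature against none. By edgeR on the recovered reads, 95 genes were called in ligature against none and the calls among the differences of effects were 1, with a turned sign for *Cox8b* (-0.032) for 40% HFD against ND and *Cidea* (0.019) for CCL19-KI against WT. By DESeq2 on those reads, 2650, 490, 445 and 809 genes were called in 40% HFD against ND, 60% against 40% HFD, CCL19-KI against WT and ligature against none, the members called were 1 and 1 in 60% against 40% HFD and ligature against none, 22 calls were made among the single-factor comparisons and the calls among the differences of effects were 2, with a turned sign for *Cox8b* (-0.027) for 40% HFD against ND, *Ppargc1a* (-0.0060) for 60% against 40% HFD and *Cidea* (0.011) for CCL19-KI against WT. Given the skeletal muscle score, 83, 7, 21 and 25 genes were called in 40% HFD against ND, 60% against 40% HFD, CCL19-KI against WT and ligature against none, the members called were 0 in 40% HFD against ND and 6 calls were left among the single-factor comparisons, with a turned sign for *Ppargc1a* (0.11), *Cox8b* (-0.17) and *Cox7a1* (-0.085) for CCL19-KI against WT and *Ppargc1a* (0.068) for ligature against none. Given the hepatocyte score, 2139, 526 and 410 genes were called in 60% HFD against ND, 40% HFD against ND and ligature against none, the members called were 1 in ligature against none and 1 calls were left among the single-factor comparisons, with a turned sign for *Dio2* (0.13) and *Elovl3* (-0.33) for 60% HFD against ND, *Prdm16* (0.14), *Elovl3* (-0.22) and *Ebf2* (0.043) for 40% HFD against ND, *Ppargc1a* (0.053) and *Cox8b* (-0.029) for CCL19-KI against WT, *Elovl3* (-0.61) for KI against WT, ND, no ligature, *Elovl3* (-0.23) for 40% HFD against ND, WT, no ligature and *Elovl3* (-0.61) for 60% HFD against ND, WT, no ligature. Given the adipocyte score, 516, 244 and 9 genes were called in 60% against 40% HFD, CCL19-KI against WT and ligature against none and the members called were 1 in 60% against 40% HFD, with a turned sign for *Ppargc1a* (-0.22) and *Ebf2* (0.040) for 60% against 40% HFD, *Cidea* (0.057) and *Ebf2* (0.14) for CCL19-KI against WT and *Ppargc1a* (0.26) for ligature against none. Given the epididymal epithelium score, 631, 233 and 188 genes were called in 40% HFD against ND, 60% against 40% HFD and ligature against none and the members called were 1 in ligature against none, with a turned sign for *Prdm16* (0.14) and *Cox8b* (-0.048) for 40% HFD against ND, *Ppargc1a* (-0.055) for 60% against 40% HFD and *Ppargc1a* (0.13) for ligature against none. Given both hepatocyte and epididymal scores, 1944, 184, 271 and 1169 genes were called in 60% HFD against ND, 40% HFD against ND, 60% against 40% HFD and ligature against none and the members called were 1, 0 and 2 in 60% HFD against ND, 40% HFD against ND and ligature against none, with a turned sign for *Dio2* (0.017) and *Elovl3* (-0.44) for 60% HFD against ND, *Prdm16* (0.40), *Elovl3* (-0.45) and *Ebf2* (0.20) for 40% HFD against ND, *Elovl3* (0.0073) for 60% against 40% HFD, *Ppargc1a* (0.018) for CCL19-KI against WT, *Elovl3* (-1.05) for KI against WT, ND, no ligature, *Elovl3* (0.37) for KI against WT, 60% HFD, no ligature, *Elovl3* (-0.69) for 40% HFD against ND, WT, no ligature and *Elovl3* (-1.23) for 60% HFD against ND, WT, no ligature. Without the 2 libraries of highest epididymal score, 1087, 346, 610 and 189 genes were called in 40% HFD against ND, 60% against 40% HFD, CCL19-KI against WT and ligature against none. The members called were 1, 0, 1 and 1 in 60% HFD against ND, 40% HFD against ND, 60% against 40% HFD and ligature against none. The sign turned for *Prdm16* (0.059) and *Cox8b* (-0.0069) for 40% HFD against ND, *Cox8b* (-0.11) for CCL19-KI against WT and *Ppargc1a* (0.050) for ligature against none. In fits of only the compared groups, 5 calls were left among the single-factor comparisons. Quantile normalization gave 1271 higher and 2630 lower genes for 60% HFD against ND, compared with 1816 and 1499, and moved the share of higher calls from 54.8 to 32.6%. For 40% HFD against ND that share moved from 58.2 to 40.4%.

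The replicate numbers did not pair the mice: of 198 pairs of same-numbered libraries in different groups, 73 correlated over 0.1 in their deviations from the group means, the median was -0.015 compared with 0.017 for different numbers, and 10 of 36 libraries correlated best with their own number. With the replicate number as a block, 3304 and 1569 genes were called for 60% and 40% HFD against ND, 138 for 60% against 40% HFD, 106 for CCL19-KI against WT and 47 for ligature, with 2, 1, 0, 0 and 0 members, and 12 single-factor calls. *Ebf2* for 60% HFD against ND then had an adjusted p of 0.0588 (limma).

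Leaving out each mouse in turn gave 845 to 2387 genes in 40% HFD against ND, 0 to 1 member in 40% HFD against ND, 46 to 289 genes in 60% against 40% HFD, 0 to 1 member in 60% against 40% HFD, 53 to 551 genes in CCL19-KI against WT, 22 to 272 genes in ligature against none, 0 to 1 member in ligature against none, 6 to 26 single-factor calls and 0 to 3 calls among the differences of effects. A group with 2 mice left was taken to vary like the other groups. Some signs turned in leave-outs. For 60% HFD against ND, the range was *Dio2* -0.15 to 0.018. For 40% HFD against ND, the ranges were *Prdm16* -0.12 to 0.059 and *Cox8b* -0.012 to 0.35. For 60% against 40% HFD, the ranges were *Ppargc1a* -0.033 to 0.17. For CCL19-KI against WT, the ranges were *Cidea* -0.065 to 0.038, *Ppargc1a* -0.20 to 0.13, *Cox8b* -0.12 to 0.13 and *Cox7a1* -0.023 to 0.13. For ligature against none, the ranges were *Ppargc1a* -0.21 to 0.11, *Cox8b* -0.22 to 0.024 and *Cox7a1* -0.13 to 0.021.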
